A study of Mus musculus with 24 samples.

Results

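The 10 genes described here encode ligands, receptors and SMAD proteins of the TGF-beta pathway: Tgfb1, Tgfb2, Tgfb3, Inhba, Tgfbr1, Tgfbr2, Smad2, Smad3, Smad7 and Skil. They were taken by name, out of 21887 protein-coding genes, at their positions on the mouse build mm10, and each was examined over its body plus 20 kb on each side. All 10 names matched the RefSeq gene table, and the rule itself uses only names and positions. The cells were a mouse embryonic fibroblast line with a Myh6-eGFP reporter in which doxycycline switches on Mef2c, Gata4 and Tbx5 (MGT), the factors used to turn fibroblasts into induced cardiomyocytes. Binding was mapped by CUT&RUN, in which a nuclease held by an antibody cuts out the DNA around the bound protein.

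MEF2C was mapped at day 1 of MGT expression, in cells given 1 µg/mL doxycycline 1 day after transfection with a control siRNA (siControl, n = 2), an siRNA to Junb (siJunb, n = 3) or one to H1f0 (siH1f0, n = 3). Junb encodes an AP-1 transcription factor, and H1f0 encodes the linker histone H1.0. H1.0 itself and the histone mark H3K9me3 were mapped in siControl cells at day 1 (n = 2 each) and in the ground state, without siRNA or reprogramming (n = 2 each). All groups therefore came from the 1 inducible line, and every MEF2C library came from cells that overexpress Mef2c, so binding by the MEF2C that fibroblasts make themselves was not measured. The 8 IgG samples, RNA and protein were not analysed here, so neither the knockdowns nor the fibroblast label could be checked. Replicates are called biological in the labels, with no word on whether cultures or transfections were separate, so a p-value covers only the spread among these libraries, part of which may be technical.

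TGF-beta ligands are secreted in a latent form, and once freed they bring together a type II receptor (Tgfbr2) and a type I receptor (Tgfbr1), which phosphorylates SMAD2 and SMAD3. These receptor-activated SMADs enter the nucleus with SMAD4 and switch target genes on or off, while the inhibitory SMAD7 and the corepressor SKIL (SnoN), both induced by the pathway, hold it back. In fibroblasts the pathway drives contractile and matrix genes, and its inhibition is known to favour the conversion of fibroblasts to cardiomyocyte-like cells. Inhba encodes the subunit that forms activin A, a related ligand that also signals through SMAD2 and SMAD3.

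The RefSeq promoter table held 6 of the 10 genes (Tgfb1, Tgfb2, Tgfbr1, Tgfbr2, Smad3 and Inhba, with 2 starts for Tgfbr1), each as the 250 bases before a transcription start and the 50 after it. The 250 bases before the start are printed for the 4 genes whose promoter carried a MEF2C peak in at least 3 of the 8 libraries, because the comparisons further on turn on these places. All are RefSeq sequences of GRCm38.p6, the assembly behind mm10, written 5′ to 3′ on the strand of the gene, with the motifs found in capitals. Smad3 lies at chr9:63757995-63758244 on the minus strand, Tgfbr1 at chr4:47352972-47353221 on the plus strand, Tgfbr2 at chr9:116175364-116175613 on the minus strand and Inhba at chr13:16011601-16011850 on the plus strand.
Smad3: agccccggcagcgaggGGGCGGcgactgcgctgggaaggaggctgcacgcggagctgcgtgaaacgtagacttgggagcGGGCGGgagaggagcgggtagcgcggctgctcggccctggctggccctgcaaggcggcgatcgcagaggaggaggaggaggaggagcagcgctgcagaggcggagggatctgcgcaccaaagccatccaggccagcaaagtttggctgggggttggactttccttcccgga
Tgfbr1: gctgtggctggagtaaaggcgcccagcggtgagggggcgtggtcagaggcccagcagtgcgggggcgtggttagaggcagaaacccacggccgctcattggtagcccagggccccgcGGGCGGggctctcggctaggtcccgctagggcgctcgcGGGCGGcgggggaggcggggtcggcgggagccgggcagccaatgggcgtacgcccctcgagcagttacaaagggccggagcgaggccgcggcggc
Tgfbr2: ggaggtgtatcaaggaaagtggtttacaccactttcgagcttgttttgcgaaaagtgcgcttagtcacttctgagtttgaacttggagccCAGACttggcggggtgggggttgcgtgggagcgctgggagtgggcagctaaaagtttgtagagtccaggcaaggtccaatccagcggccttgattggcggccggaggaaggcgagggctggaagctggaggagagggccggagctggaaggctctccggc
Inhba: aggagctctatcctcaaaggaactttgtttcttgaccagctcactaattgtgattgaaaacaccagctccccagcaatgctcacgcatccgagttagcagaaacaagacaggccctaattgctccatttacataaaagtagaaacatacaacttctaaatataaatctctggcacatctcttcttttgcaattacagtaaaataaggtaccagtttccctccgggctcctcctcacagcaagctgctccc

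Both strands were searched for the MEF2 consensus, for TGANTCA and TGACGTCA (AP-1 and CRE sites), for CAGAC and GTCTAGAC (SMAD sites) and for GGGCGG (the GC box of SP factors), none of which contains another. Of 32851 RefSeq promoters of the same length, 0.508% held the strict MEF2 site, 6.75% TGANTCA, 1.55% TGACGTCA, 42.2% CAGAC, 0.167% GTCTAGAC and 32.7% GGGCGG. The capitals in Smad3 mark GGGCGG from -234 to -229 and from -171 to -166, counted from the start, and those in Tgfbr1 mark GGGCGG from -133 to -128 and from -95 to -90. The capitals in Tgfbr2 mark CAGAC from -160 to -156, and none of the searched motifs was found in the window of Inhba. That window does hold ctaaatataa, which differs from the strict MEF2 site in its last letter only. The windows also differed in base composition, with 69.2% G and C in Smad3, 74.8% in Tgfbr1, 58.4% in Tgfbr2 and 43.2% in Inhba, against a median of 52.4% over all promoters.

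The MEF2C lists held 11731 to 49011 peaks and covered 13.4 to 89.8 Mb, those of H1.0 held 32934 to 722322 peaks (28.6 to 1109 Mb), and those of H3K9me3 held 24219 to 69439 (65.9 to 363 Mb). The file names fall into 2 series. The first-series MEF2C lists (siControl replicate 1, siJunb replicate 1 and siH1f0 replicate 3) had 11731 to 17871 peaks and the others 22870 to 49011, and the H1.0 lists 32934 to 85726 against 412869 to 722322. The H3K9me3 series overlapped in number of peaks (24219 to 69439 and 44625 to 65706) but not in covered sequence (65.9 to 109 Mb and 315 to 363 Mb). What the naming stands for is not given in the sources used here. The labels state 30 M reads for every library alike, and the reads actually behind each list are not known here. List length is a rough guide to precision, and the median peak maximum did not follow it. In the second series that median was 20 in siControl replicate 2, 7 and 9 in siJunb replicates 2 and 3, and 17 and 16 in siH1f0 replicates 1 and 2. In the first series it was 9 under siControl, 7 under siJunb and 8 under siH1f0. Each MEF2C group held 1 library of the first series, 1 of 2 under siControl and 1 of 3 under siJunb and under siH1f0. The shorter first-series lists therefore weigh more in siControl means, and the group means and permutation tests were not adjusted for this. Peak scores are not scaled between lists, so a peak is placed here by its percentile, the share of peaks in its own list with a maximum (column 5, the highest coverage within the peak) at or below its own.

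MEF2C lay most densely over Smad7, Smad3 and Tgfb3, and sparsely over both receptors, Smad2, Skil and Inhba. A peak was found in the window of 6 and 9 of the 10 genes under siControl (replicates 1 and 2), of 5, 8 and 5 under siJunb (replicates 1 to 3) and of 8, 10 and 5 under siH1f0. Over all protein-coding genes the shares with a peak were 41.1% and 60.5%, then 36.7%, 64.9% and 52.3%, then 54.9%, 62.6% and 45.8%. Tgfb2, Tgfb3, Smad3 and Smad7 had a peak in all 8 libraries, 4 of the 10 genes, against 24.4% of all genes and 28.3% of genes with windows as long as these (58.1 to 151 kb, with a median of 85.1 kb against 57.2 kb over all genes).

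**Figure D1:**
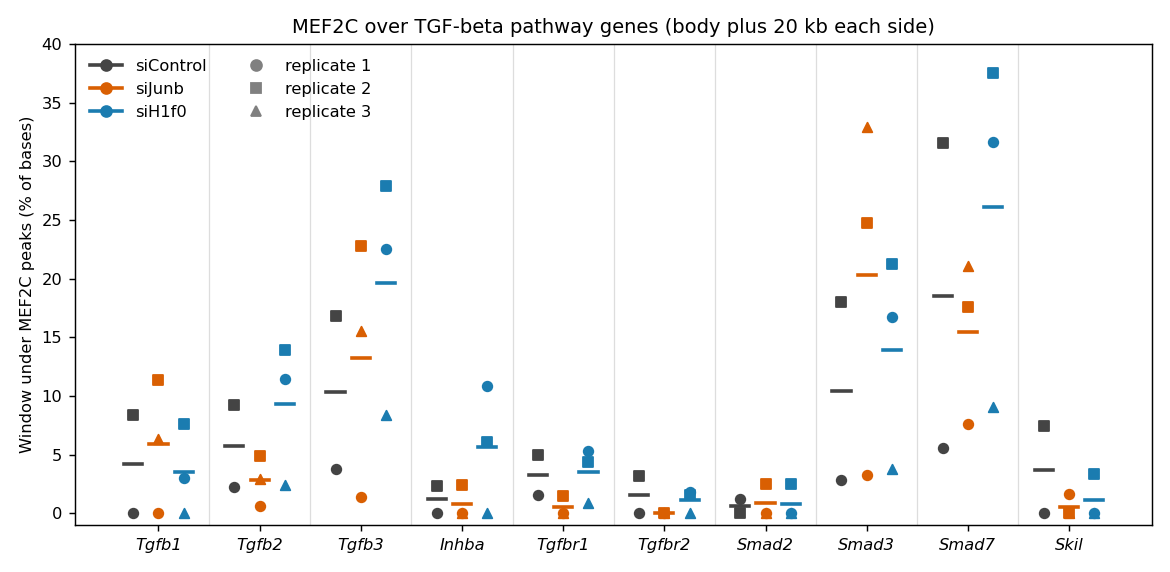
The share of each gene's window that lies under MEF2C peaks (vertical axis, % of bases) is plotted for each of the 8 libraries (points, shaped by replicate) and as group means (bars) for siControl, siJunb and siH1f0. Smad7, Smad3 and Tgfb3 reach the highest values, replicates of a group spread widely, and the groups are apart only for Tgfbr1 under siJunb against siControl.

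Among the ligands, Tgfb3 was the most covered. Under siControl 3.79% and 16.8% of its window lay under MEF2C peaks, under siJunb 1.42%, 22.8% and 15.6%, and under siH1f0 22.5%, 27.9% and 8.41%. The 3 groups overlapped, and the lowest value of each came from its first-series library. Within the series the siH1f0 values exceeded siControl by 4.62 points in the first and 8.36 in the second, while siJunb differed from siControl by -2.37 and 2.32 points. This coverage was above that of 73.6% to 97.1% of all genes, depending on the library. Within the window, however, the strongest region was not in Tgfb3: it lay at chr12:86088439-86093100, 9.40 kb beyond the upper-coordinate end of Tgfb3 and inside the neighbouring gene Ift43, which encodes a component of intraflagellar transport.

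That region was held by all 8 libraries. Its peaks stood at percentiles 63.7 and 86.5 of their lists under siControl, 70.8, 97.9 and 96.3 under siJunb, and 95.5, 95.4 and 85.8 under siH1f0. The points of highest coverage fell within 125 bp of each other across the 8 libraries. A second region, held by 7 libraries and missing from siJunb replicate 1, spanned the upper-coordinate end of Tgfb3 itself at chr12:86076164-86084945, with its summits spread over 4589 bp. Of 9 MEF2C regions in the Tgfb3 window, 7 lay outside the gene body.

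Tgfb2 had 1 region in all libraries, within its body. MEF2C covered 2.19% and 9.22% of the Tgfb2 window under siControl, 0.626%, 4.88% and 2.94% under siJunb, and 11.4%, 14.0% and 2.44% under siH1f0. The siJunb mean of 2.82% ± 2.13 (SD, n = 3) was below the siH1f0 mean of 9.28% ± 6.06 (SD, n = 3), but siH1f0 replicate 3 fell among the siJunb values. The difference of -6.46 points gave p = 0.3 by an exact permutation test over libraries (two-sided, adjusted p = 1). It was -1.81 points in the first naming series and -8.79 in the second.

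The constant Tgfb2 region, chr1:186698257-186707563, also overlaps the long noncoding RNA gene Gm35655 and reaches over the RefSeq start, which lies at position 186705989 on the minus strand. Its peaks stood at percentiles 74.3 and 97.0 under siControl, 70.8, 97.2 and 87.9 under siJunb, and 94.97, 96.8 and 85.8 under siH1f0. The summit lay 4.31 to 4.49 kb downstream of the start in 7 libraries and at 2.92 kb in siJunb replicate 3. The promoter window itself was under a peak in 1 library only, siH1f0 replicate 2. A second region, chr1:186606267-186611879, 10.9 kb beyond the lower-coordinate end and inside the noncoding gene Gm35546, was held by both siControl libraries, by all 3 siH1f0 libraries and, under siJunb, by replicate 2 alone.

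Tgfb1 and Inhba were without a MEF2C peak in all 3 first-series libraries. Over Tgfb1, coverage was 0% and 8.38% under siControl, 0%, 11.4% and 6.35% under siJunb, and 3.04%, 7.60% and 0% under siH1f0. Its window is short and crowded, holding the protein-coding genes Exosc5, Tmem91, B9d2, Ccdc97 and Hnrnpul1, and 4 of its 5 MEF2C regions lay outside Tgfb1. The highest by percentile, chr7:25711097-25712287, lay in Ccdc97 and was held by 2 libraries. The 1 region inside the gene, chr7:25687005-25690131, began 3 bases after the RefSeq start at 25687002 and was held by siJunb replicates 2 and 3 and siH1f0 replicate 2, at percentiles of at most 58.5.

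Over Inhba, coverage was 0% and 2.34% under siControl, 0%, 2.41% and 0% under siJunb, and 10.9%, 6.06% and 0% under siH1f0. The siH1f0 replicates 1 and 2 were the highest of the 8, and siH1f0 replicate 3 was at 0, so the groups overlapped. The region behind most of it, chr13:16010526-16015102, lies inside the annotated gene over the RefSeq start at 16011851 and over the overlapping gene B230303A05Rik. It was held by siControl replicate 2, siJunb replicate 2 and siH1f0 replicates 1 and 2.

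Both receptor genes were sparsely covered, and Tgfbr1 was the 1 gene of the 10 whose values did not overlap between siJunb and siControl. MEF2C covered 1.52% and 5.00% of the Tgfbr1 window under siControl, 0%, 1.48% and 0% under siJunb, and 5.32%, 4.33% and 0.904% under siH1f0. The siJunb mean was 0.493% ± 0.854 (SD, n = 3) and the siControl mean 3.26% ± 2.46 (SD, n = 2), a difference of -2.76 points. The groups were apart by a narrow margin, since the lower siControl library had 1541 covered bases and the highest siJunb library 1505. The exact permutation test gave p = 0.2, the smallest that 3 libraries against 2 allow, with adjusted p = 1 over 21887 genes. Among all genes 2.25% were apart in the same direction in this comparison and 1.63% in the other, so 1 of 10 is a count to be read against that share.

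Within the naming series the siJunb values of Tgfbr1 were lower by 1.52 points in the first (0% against 1.52%). In the second they were lower by 4.26 points (0.740% against 5.00%), with 1 siControl library in each. Groups that are apart keep their direction in any such split, so the sign adds nothing to the call. Against siH1f0 the difference was -3.02 points (exact permutation p = 0.2, adjusted p = 1), and siH1f0 replicate 3 at 0.904% lay among the siJunb values. Taking only the peaks at or above the median of column 5 in each list, the groups overlapped and the difference from siControl was -1.21 points. Counting peaks in place of covered bases, they overlapped too, with 1 and 2 peaks under siControl against 0, 1 and 0 under siJunb.

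The difference over Tgfbr1 came from 2 places, shown in the map of peaks over Smad3 and Tgfbr1. The first is chr4:47416269-47420078, 1.34 kb beyond the upper-coordinate end of the gene, where no other gene of the table lies. It was held by both siControl libraries (percentiles 47.6 and 66.9), by all 3 siH1f0 libraries (57.4, 81.7 and 89.8) and by siJunb replicate 2 alone (71.8). The 6 summits fell within 282 bp. With every list shortened to the 11731 strongest peaks of the shortest, 0 of 3 siJunb libraries held the region, against 2 of 2 under siControl and 3 of 3 under siH1f0. The siJunb coverage of Tgfbr1 was then apart from that of siH1f0 as well.

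The second place is the Tgfbr1 promoter printed above, under the region chr4:47351907-47353561, which also overlaps the noncoding gene Gm32435. A MEF2C peak covered part of this promoter window in siControl replicate 2 and siH1f0 replicates 1 and 2, and in no siJunb library. The start further inside the gene, at 47386216, was under no MEF2C peak in any library.

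Tgfbr2 had no MEF2C peak in any siJunb library. Its coverage was 0% and 3.16% under siControl, 0% in all 3 siJunb libraries, and 1.79%, 1.52% and 0% under siH1f0. The groups overlapped at 0, and the difference between siJunb and siControl was -1.58 points (exact permutation p = 0.8, adjusted p = 1). A window without a peak in any siJunb library was common, at 30.2% of all genes, and none of the 10 genes had that together with a peak in both siControl libraries, as 1.15% of all genes did. The region over the Tgfbr2 promoter, chr9:116173778-116176339, also overlaps the noncoding gene Gm40582 and was held by siControl replicate 2 and siH1f0 replicates 1 and 2, at percentiles between 11.3 and 33.3. The other Tgfbr2 region, chr9:116152655-116154130 in the gene body, was held by siControl replicate 2 alone.

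Tgfbr1, Tgfbr2 and Inhba thus shared one pattern at their promoters: a MEF2C peak in siControl replicate 2 and siH1f0 replicates 1 and 2, and none in the 3 siJunb libraries. The pattern was noticed after the values were seen and carries no test. Of all 32851 promoter windows, 3.0% had a peak in at least 1 siControl and at least 2 siH1f0 libraries and in no siJunb library. The libraries that held these peaks are all of the second naming series, whose 2 siJunb lists had 49011 and 25790 peaks. Those 2 siJunb lists, though not short, had a median column 5 of 7 and 9. It was 20 in siControl replicate 2 and 17 and 16 in siH1f0 replicates 1 and 2. Whether this difference in signal bears on the pattern was not tested. Over the Tgfbr1 promoter the peaks stood at percentiles 33.6, 44.4 and 72.0 of their lists, and over that of Inhba at 29.5, 67.0 and 65.2, and the Inhba peak of siJunb replicate 2 lay wholly downstream of the promoter window. With only the peaks at or above each list's median, or with lists of equal length, none of the 3 promoters kept the pattern. Leaving out siControl replicate 2, siH1f0 replicate 1 or siH1f0 replicate 2 also gave 0 promoters. That follows from the count itself, which needs each of these libraries, so it tests nothing further.

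Smad3, a receptor-activated SMAD with the longest of the 10 windows, held 28 of the 68 MEF2C regions found over them. It also held 7 of the 16 regions that at least 6 libraries shared. Coverage of its 151 kb window was 2.81% and 18.0% under siControl, 3.23%, 24.7% and 32.9% under siJunb, and 16.7%, 21.3% and 3.77% under siH1f0. The 2 highest values were siJunb replicates 3 and 2, while siJunb replicate 1 stood with the other first-series libraries near 3%, so the groups overlapped. The siJunb mean of 20.3% ± 15.3 (SD, n = 3) differed from the siControl mean of 10.4% ± 10.7 (SD, n = 2) by 9.89 points (exact permutation p = 0.4, adjusted p = 1). Within the naming series the difference was 0.423 points in the first and 10.8 points in the second. Without siJunb replicate 1, or without siControl replicate 2, the siJunb values of Smad3 lay above those of siControl. These are the libraries that made the groups overlap, so leaving either out tests nothing further. In every library Smad3 was covered more than at least 85.2% of all genes.

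The strongest Smad3 region lay over its promoter. The region chr9:63752198-63763328 was held by all 8 libraries, at percentiles 78.1 and 88.6 under siControl, 86.7, 95.2 and 83.5 under siJunb, and 87.8, 91.7 and 85.8 under siH1f0. Its summit lay inside the gene, 1.06 to 1.27 kb downstream of the RefSeq start at 63757994 (minus strand), and the 8 summits fell within 206 bp of each other. The promoter printed above was itself under a peak in 5 libraries: siControl replicate 2, siJunb replicates 1 and 3 and siH1f0 replicates 1 and 2. Of all promoter windows, 2.69% were under a peak in all 8 libraries, which that of Smad3 was not.

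A second constant place in the Smad3 window lay in the neighbouring gene Aagab, at chr9:63639909-63645531. It was held by 7 libraries, all but siJunb replicate 1, with the summits within 96 bp, the tightest of the 16 widely shared regions. Inside the gene, chr9:63735113-63738989 was held by 7 libraries, all but siControl replicate 1, with summits 20.1 to 20.4 kb downstream of the start. Of the 28 Smad3 regions, 16 were held by a single library, in each case a siJunb library, and 17 by no siControl library. In the gene body lay 24 of them.

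**Figure D2:**
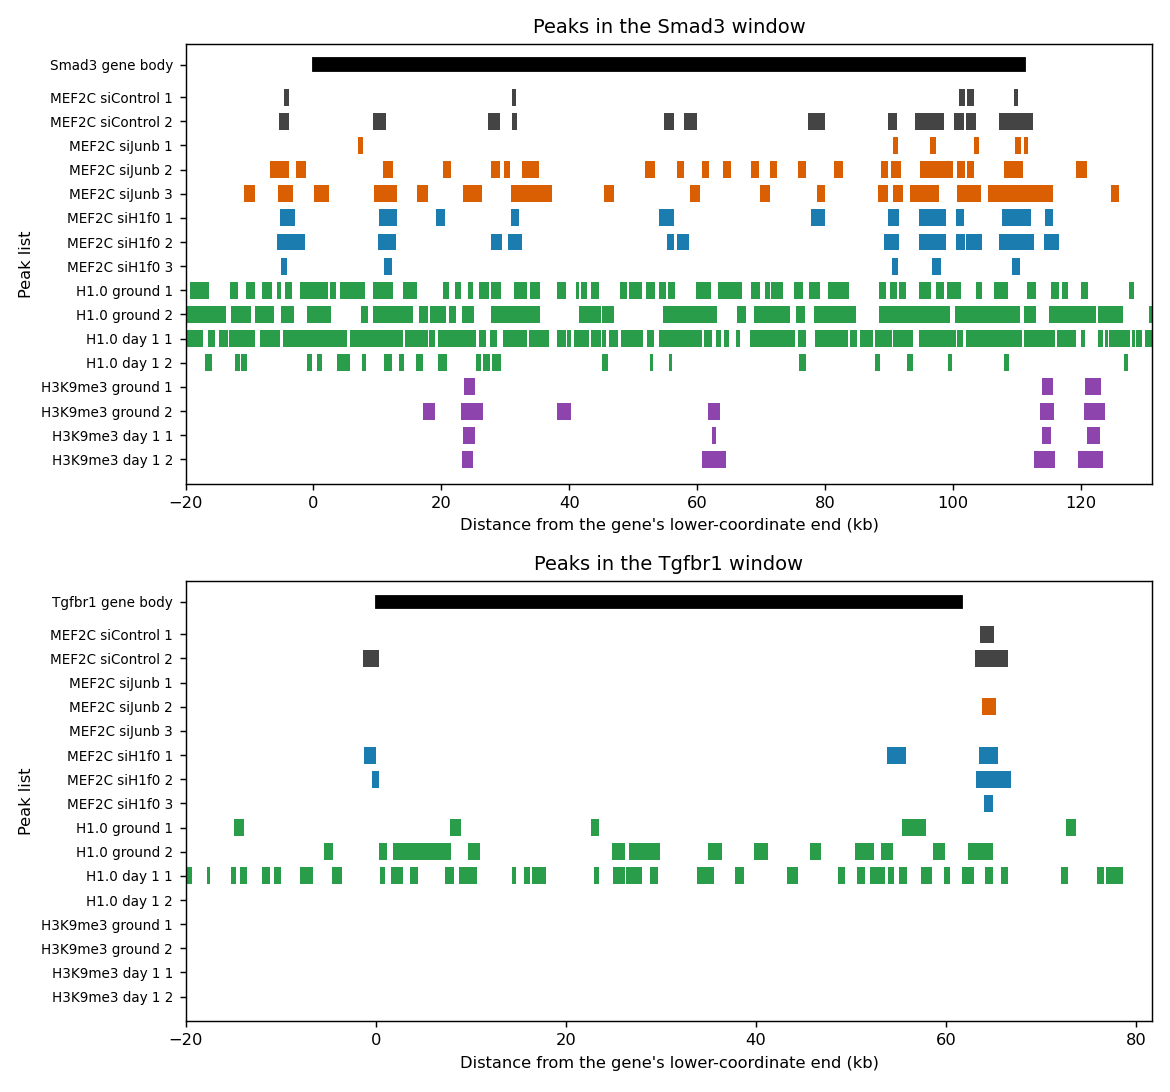
Peaks of all 16 lists (bars, 1 row per list) are drawn along the windows of Smad3 and Tgfbr1, with the distance from the gene's lower-coordinate end in kb on the horizontal axis and the gene body in black; the RefSeq start of Smad3 is at its right-hand end and the first start of Tgfbr1 at its left. The Smad3 promoter region is present in all 8 MEF2C lists, and beyond the Tgfbr1 body a peak is present in all siControl and siH1f0 lists and in 1 of 3 siJunb lists.

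Smad2, the other receptor-activated SMAD, was nearly free of MEF2C. Its coverage was 1.24% and 0% under siControl, 0%, 2.49% and 0% under siJunb, and 0%, 2.47% and 0% under siH1f0. None of its 3 regions was held by more than 2 libraries, and the highest by percentile, chr18:76275907-76277143, was held by siJunb replicate 2 alone at percentile 39.3. The groups overlapped in every comparison.

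Smad7, the inhibitory SMAD, was the most covered of the 10 in 6 of the 8 libraries, the exceptions being siJunb replicates 2 and 3. MEF2C lay over 5.57% and 31.5% of its window under siControl, 7.59%, 17.6% and 21.1% under siJunb, and 31.6%, 37.5% and 9.08% under siH1f0. The second-series values were all above the first-series ones, and among them the siJunb libraries were the lowest, but the groups as a whole overlapped. The difference between siJunb and siH1f0 was -10.7 points (exact permutation p = 0.3, adjusted p = 1). It was -1.50 points in the first series and -15.3 points in the second.

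Most of the Smad7 signal came from 1 wide region, chr18:75362323-75388866, made of 3 to 6 peaks in each library and crossing the lower-coordinate end of the gene. It was held by all 8 libraries and had the highest mean percentile of any region over the 10 genes, 92.9. Its peaks stood at percentiles 88.6 and 98.8 under siControl, 78.1, 95.8 and 95.9 under siJunb, and 96.8, 98.0 and 91.2 under siH1f0. The summit lay 3.16 to 3.40 kb outside the lower-coordinate end in 7 libraries and 4.06 kb outside it in siJunb replicate 3. The noncoding gene Gm20544 also lies under this region. A further region 8.15 kb beyond the upper-coordinate end, chr18:75404089-75406749, was held by 6 libraries with summits within 160 bp.

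Skil, which encodes the corepressor SnoN, had few peaks. Its coverage was 0% and 7.41% under siControl, 1.60%, 0% and 0% under siJunb, and 0%, 3.35% and 0% under siH1f0. Its highest region by percentile, chr3:31107502-31109800 in the gene body, was held by siControl replicate 2 and siH1f0 replicate 2. The groups overlapped in all comparisons, with a difference of -3.17 points between siJunb and siControl (exact permutation p = 0.8, adjusted p = 1).

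Over all 10 genes, no value was apart between siH1f0 and siControl (0 lower and 0 higher, against 0.407% and 2.32% of all genes) or between siJunb and siH1f0 (0 and 0, against 2.61% and 0.781%). The median difference over the 10 genes was -0.976 points for siJunb against siControl, where the median over all genes was 0. It was 1.89 points for siH1f0 against siControl, where all genes had 0.124, and -2.06 for siJunb against siH1f0, where all genes had 0. These comparisons share libraries and their medians are not independent. Those against siControl also carry the unequal weight of the first series. By the sign of the mean difference within both naming series, 4 genes (Tgfb2, Tgfb3, Tgfbr1 and Smad7) were lower under siJunb than under siH1f0 and 0 higher, against 21.3% and 7.42% of all genes. By the same count 2 (Tgfb2 and Tgfbr1) were lower and 1 (Smad3) higher under siJunb than under siControl, against 15.5% and 12.6%. For Tgfbr1 that sign follows from its groups being apart. For siH1f0 against siControl 1 (Tgfbr1) was lower and 4 (Tgfb2, Tgfb3, Smad3 and Smad7) higher, against 6.68% and 21.6%.

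**Figure D3:**
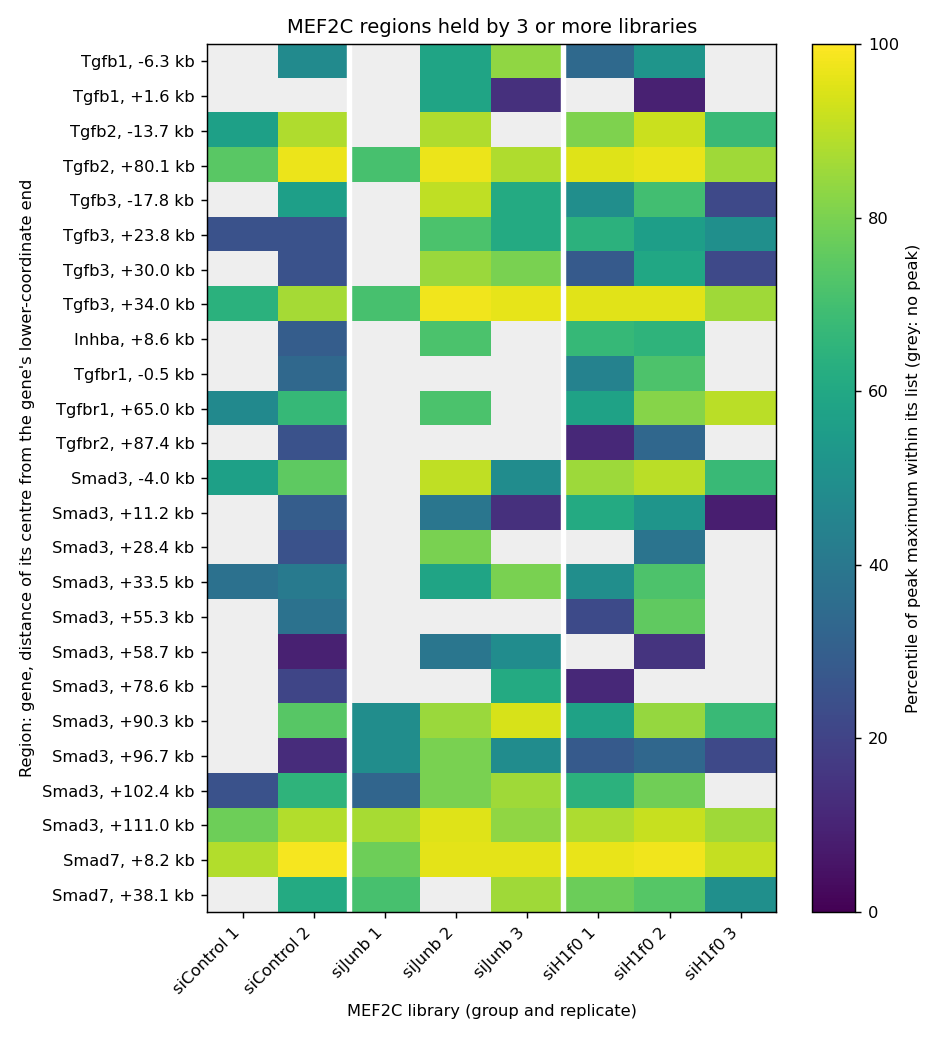
Each row is 1 of the MEF2C regions held by at least 3 libraries, named by gene and by the distance of its centre from the gene's lower-coordinate end, and the colour gives the percentile of the peak maximum within its own list (grey where the library has no peak). The regions of Tgfb2, Tgfb3, Smad3 and Smad7 held by all 8 libraries lie at percentile 63.7 or above in every list, and the Tgfbr1 and Tgfbr2 promoter regions are empty under siJunb.

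Counted by presence, no region over the 10 genes was lost or gained. A lost region was held by every library of the reference group and by none of the group set against it, and a gained one the reverse. Of the 68 regions, 0 were lost and 0 gained under siJunb (1.98% and 0.256% of all 77240 regions) and 0 and 0 under siH1f0 (0.249% and 0.448%). Between siJunb and siH1f0 the counts were also 0 and 0 (1.41% and 0.132%). Of the 68 regions, 10 were held by both siControl libraries, so few could have been called lost. By a looser count, 3 regions (1 each over Tgfbr1, Tgfbr2 and Smad3) were held by at least 2 siH1f0 libraries and no siJunb library, as 5.82% of all regions were, and 0 by at least 2 siJunb and no siH1f0 library, as 3.6% were. In all, 36 regions were held by 1 library, 16 by at least 6 and 4 by all 8, where the shares over all regions were 56.4%, 12.9% and 5.58%.

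H1.0 covered Smad3 more than the other 9 genes in every H1.0 list. In the ground state 51.0% and 68.5% of the Smad3 window lay under H1.0 peaks, and at day 1 83.0% and 14.2%. These values exceeded those of 99.9%, 87.3%, 99.4% and 99.5% of all genes in the same lists. The day 1 values lay on either side of the ground-state values, so the groups overlapped, and the difference of -11.1 points gave p = 1 by the exact permutation test (adjusted p = 1).

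For all 10 genes the longer, second-series list gave the higher H1.0 value in both states. Inhba was at 0% and 63.5% in the ground state and at 44.9% and 0% at day 1, with the 0 values in the first-series lists. Skil was at 0% and 18.5%, then 19.9% and 0%, and Tgfbr1 at 6.47% and 24.7%, then 34.6% and 0%. A peak was present in all 4 H1.0 lists for Tgfb2, Tgfb3 and Smad3, 3 of the 10 genes, against 51.8% of all genes. A peak was found over 8 and 10 of the 10 genes in the ground state and over 10 and 3 at day 1, where the shares over all genes were 78.8%, 97.5%, 98.3% and 56.8%. None of the 10 genes was apart between day 1 and the ground state, against 0.064% of all genes lower and 0.0548% higher. Within the naming series the direction turned, with 8 genes lower at day 1 in the first series (72.8% of all genes) and 8 higher in the second (53.2%). Tgfbr2 alone had 1 sign in both, lower at day 1, where 29.0% of all genes were lower in both and 4.24% higher.

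Sequence that lay under a peak in all 4 H1.0 lists was found over Smad3 alone, as 15 pieces with 7752 bp in all. Of these, 5897 bp lay in a MEF2C region of any library and 557 bp in one held by all 8 libraries. MEF2C regions fill much of this window: siJunb replicate 3 alone covered 32.9% of it, and 16 of its 28 regions were each held by 1 siJunb library only. The share of the window under any MEF2C region was not set against the 5897 bp. For the 557 bp, the region held by all 8 libraries is 11.1 kb long in a window of 151 kb. The longest piece, chr9:63657784-63659116, lies in the gene body within a MEF2C region held by 6 libraries. Over the 16 MEF2C regions that at least 6 libraries held, H1.0 lay over 24.7% and 66.5% of bases in the ground state and over 72.3% and 3.36% at day 1. Smad3 held 7 of these 16 regions and carried much of that: its regions were covered at 54.1% and 81.2%, then 91.9% and 8.02%, and the 9 regions of the other genes at 6.02% and 57.3%, then 59.9% and 0.402%. Over all the windows together the shares were 11.7% and 36.2%, then 41.7% and 2.51%. The Smad3 window alone was covered at 51.0% and 68.5%, then 83.0% and 14.2%. Against their own window the Smad3 regions were thus lower in day 1 replicate 2 and higher in the other lists, by little in ground replicate 1. The windows of the other genes were not taken apart from that of Smad3. All 9983 MEF2C regions held by at least 6 libraries were more covered than the genome in each list. Their shares were 7.06%, 63.6%, 58.0% and 2.99% of bases, against 3.41%, 40.8%, 33.5% and 1.05%. No IgG background was set against these shares.

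**Figure D4:**
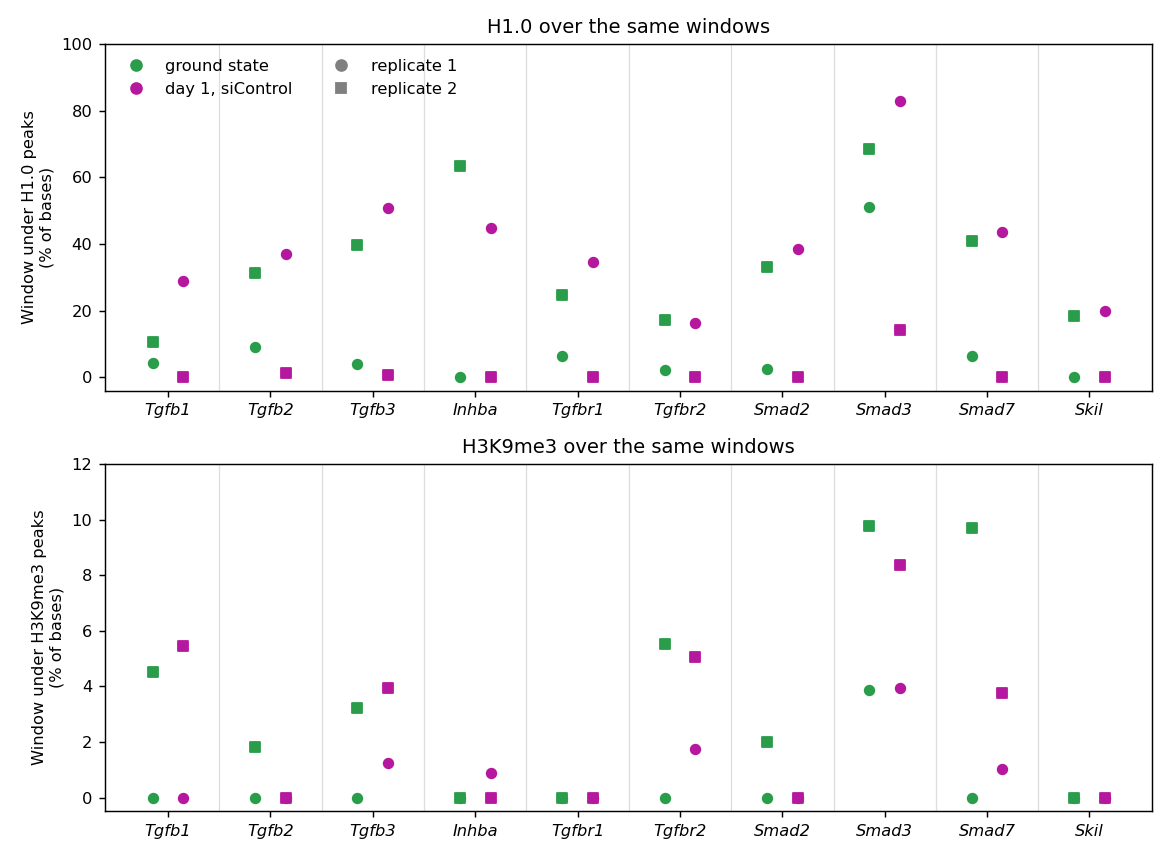
The share of each gene's window under H1.0 peaks (upper panel) and under H3K9me3 peaks (lower panel, other scale) is plotted in % of bases for 2 ground-state and 2 day 1 libraries. Smad3 is the highest of the 10 genes in every H1.0 list and the only one of them with an H3K9me3 peak in all 4 lists, while Tgfbr1 and Skil have no H3K9me3 peak.

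H3K9me3, a mark of silent chromatin, covered at most 9.78% of any of these windows. A peak was found over 1 and 7 of the 10 genes in the ground state and over 5 and 5 at day 1, where the shares over all genes were 30.0%, 56.6%, 43.9% and 49.7%. Smad3 alone had one in all 4 lists, as 28.2% of all genes did, and Tgfbr1 and Skil had none in any list. Coverage of the Smad3 window was 3.87% and 9.78% in the ground state and 3.95% and 8.39% at day 1, which overlapped (difference -0.66 points, exact permutation p = 1, adjusted p = 1). Smad7 came close to Smad3 in ground replicate 2 alone, at 9.70%, and was at 0% in ground replicate 1 and at 1.02% and 3.76% at day 1. The median over the 10 genes was 0% and 2.62% in the ground state and 0.451% and 1.88% at day 1, where all genes had 0%, 2.33%, 0% and 0%. None of the 10 genes was apart between the states, against 0.626% of all genes lower and 1.46% higher. Within the naming series the direction turned here too, with 5 genes higher at day 1 in the first (32.7% of all genes) and 5 lower in the second (29.6%). Tgfb3 alone was higher in both, as 17.4% of all genes were, and 0 were lower in both, against 6.79%.

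The H3K9me3 shared by all 4 lists over Smad3 lay in 3 pieces of 4802 bp in all. One, chr9:63760750-63762064, was 2.76 to 4.07 kb upstream of the Smad3 start and within the promoter region of MEF2C. There MEF2C peaks of siJunb replicate 3 and siH1f0 replicates 1 and 2 overlapped it, and those of the other 5 libraries did not. Another, chr9:63670305-63671764 in the gene body, was overlapped by siJunb replicate 3 alone, and the third, chr9:63767788-63769814, 9.79 to 11.8 kb upstream, by no MEF2C peak. H3K9me3 touched 1, 2, 1 and 1 of the 16 widely shared MEF2C regions in the 4 lists. It touched 3.84%, 11.2%, 5.92% and 8.80% of all 9983 MEF2C regions held by at least 6 libraries, so these counts are near the background.

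The rest of the pathway was taken as 55 further genes in 4 lists. A MEF2C peak was present in all 8 libraries for 5 of 15 ligands, latency proteins and antagonists, 3 of 9 receptors and co-receptors, 9 of 15 other SMADs and regulators and 7 of 16 known response genes. Together these were 24 of 55 genes, against 24.4% of all genes, and Lrrc32, Mstn and Acvrl1 had no peak in any library, as 22.6% of all genes did. Under siJunb against siControl, 1 of the 55 was lower and 1 higher, where 2.25% and 1.63% of all genes were, so these counts are near the background. Col3a1, a fibrillar collagen gene, was at 0.898% and 7.81% under siControl and at 0% in all 3 siJunb libraries. Acvr2b, an activin type II receptor gene, was at 1.44% and 2.53% under siControl and at 2.75%, 9.50% and 13.3% under siJunb.

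Acvr2b was also the 1 gene of the 55 apart under siH1f0 against siControl, at 4.26%, 5.32% and 2.83%, where 2.32% of all genes were higher. Between siJunb and siH1f0, 2 were lower and 0 higher, where 2.61% and 0.781% of all genes were, again near the background. Fst, which encodes the activin antagonist follistatin, was at 0% in all siJunb libraries and at 4.39%, 6.63% and 1.85% under siH1f0. Acvr2a, another activin type II receptor gene, was at 2.96%, 2.92% and 2.17% under siJunb and at 7.42%, 10.7% and 3.66% under siH1f0. For H1.0 none of the 55 was apart. For H3K9me3, Lrrc32 (5.14% and 8.72% in the ground state, 3.73% and 4.15% at day 1) and Acvr1 (0.0424% and 1.04%, then 0% and 0%) were lower, and Smurf2 (1.45% and 1.89%, then 2.00% and 2.34%) was higher, where 0.626% and 1.46% of all genes were. The adjusted p by the exact permutation test was 1 in each of these cases.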

How the data were processed

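The 16 deposited peak lists cover 8 MEF2C, 4 H1.0 and 4 H3K9me3 libraries. Bowtie2, SEACR and the build mm10 are named in the submitters' processing notes. Their versions are not given in the sources used here. The lists carry SEACR's relaxed setting in their names. The deposited values are signal, the authors' coverage summed over a peak (column 4) and its maximum (column 5), called on each sample by itself and not scaled between samples. The scores are the authors' and were used only within a list.

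Peaks on the 19 autosomes and the sex chromosomes were kept. Gene positions came from RefSeq GRCm38.p6, which gave no strand or exons, so a place inside a gene could not be assigned to exon, intron or UTR. For each gene the percent of the window under peaks was computed in each library. Peaks of the 8 MEF2C lists that overlapped or touched were merged into 77240 regions, and an overlap of 1 bp counted. A summit is the middle of the stretch with the highest coverage. A gene was called where the values of 2 groups did not overlap. Each gene had an exact permutation test over libraries, two-sided, with Benjamini-Hochberg adjustment over 21887 genes. The smallest p possible is 0.2 for 3 libraries against 2, 0.1 for 3 against 3 and 0.333 for 2 against 2, so no test could pass 0.05, and every adjusted p for the 10 genes was 1. The calculation was tested on simulated data. Python 3.11.15, pandas 2.3.3 and numpy 2.4.6 were used.

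The rule for named items took all 10 genes, for each the region with the highest mean percentile, every region lost or gained and any region over a promoter, and of the 55 other pathway genes those called. Other regions named were chosen after their values were seen. The genes and lists were chosen with earlier results of these data known. Alternatives were the flank, the peaks at or above each list's median of column 5, lists of equal length, peak number, peak midpoint, column 4 ranks, a replicate block and leaving out each replicate. Those within naming series, the crossed pairing and those of the promoter pattern were added after seeing the data. The 8 IgG samples were not analysed here.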

Additional observations from a re-analysis of the deposited data

How the results depend on the processing

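Groups that are apart stay apart when a library is left out, so leaving out replicates could not test the Tgfbr1 call. The difference between siJunb and siControl was then -4.50 to -1.02 points. The Tgfbr1 groups overlapped with only the peaks at or above each list's median (-1.21 points, 0 genes lower, 0 promoters) and by number of peaks (0 genes lower). The causes of the changes given here were not tested. Shares of all genes and regions were not computed for the other flanks, the upper peaks, equal lists or peak number. The counts under those settings therefore have no background beside them. With 50 kb flanks, 1 gene was lower under siJunb than under siH1f0 (Tgfbr1), 1 lower in H3K9me3 at day 1 (Smad2), 2 regions were lost under siJunb and 1 against siH1f0. With lists of equal length, 1 gene was higher under siH1f0 (Tgfb3), 1 lower under siJunb than siH1f0 (Tgfbr1), 1 lower in H1.0 (Tgfbr1), 1 region was lost under siJunb, 1 against siH1f0, and 0 promoters kept the pattern. By column 4, the mean percentile of the highest peak moved by over 1 SD only for Tgfb2, from 88.1 to 77.4.

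Replicate numbers are not given a meaning in the labels. Deviations of same-numbered libraries correlated at 0.67 and 0.56 for siJunb and siControl and at 0.89 for H3K9me3. They correlated at -0.36 and 0.70 for siH1f0 and siControl, at -0.27, 0.54 and -0.34 for siJunb and siH1f0 and at -0.57 for H1.0. The numbers were therefore not taken to pair the samples. The signs followed the naming series: every pair within a series correlated positively (0.17 to 0.89) and every pair across series negatively. In groups of 2 libraries the deviations mirror each other, so these values are not independent. With a replicate block, 2 genes were lower and 1 higher under siJunb (13.6% and 13.5% of all genes), 5 higher under siH1f0 (37.4%), 1 lower under siJunb than siH1f0 (7.15%), and 1 higher in H3K9me3 (17.4%). The crossed pairing gave 1 gene lower in H1.0 (29.0%). For siJunb against siControl, Tgfbr1 is lower under any pairing or split, since its groups are apart. Within both naming series, siJunb gave 2 lower and 1 higher (15.5% and 12.6% of all genes), siH1f0 1 lower and 4 higher (6.68% and 21.6%), siJunb against siH1f0 4 lower (21.3%), H1.0 1 lower (29.0%) and H3K9me3 1 higher (17.4%).

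Leaving out 1 library at a time, the genes lower ranged from 1 to 5 and higher from 0 to 2 for siJunb against siControl, lower from 0 to 3 and higher from 0 to 4 for siH1f0 against siControl, and lower from 0 to 5 and higher from 0 to 1 for siJunb against siH1f0. For H1.0 the genes lower ranged from 0 to 8 and higher from 0 to 8, and for H3K9me3 lower from 0 to 5 and higher from 0 to 4. Regions lost ranged from 0 to 9 and gained from 0 to 2 under siJunb, lost from 0 to 6 and gained from 0 to 6 under siH1f0, and lost from 0 to 3 between the knockdowns. Promoters with the pattern ranged from 0 to 3, and genes with a peak in all libraries stayed at 4. Leaving out a library cannot lower that last count or the counts of genes lower or higher, so these could only stay or rise. No share of all genes or regions was computed with a library left out, so none of these counts has a background beside it. The highest counts of genes lower under siJunb (5) and of regions lost (9) came without siControl replicate 1. Without it siH1f0 gave 3 genes lower and 6 regions lost, and without siControl replicate 2 it gave 4 genes higher and 6 regions gained. The highest counts of genes lower under siJunb than siH1f0 (5) came without siH1f0 replicate 3, and the H1.0 counts of 8 came without day 1 replicate 1 (lower) or 2 (higher). Those of H3K9me3 came without ground replicate 1 (5 lower) or 2 (4 higher). Of 211 alternative values of the counts, 156 equalled their main value or lay within 1.5 times of it. Most main counts were 0, and an alternative to those was included only where it stayed at 0.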
